A study of Mus musculus with 6 samples.

Results

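Transcripts of 9 chemokine genes were measured in pancreatic tumor cells sorted from mice that had or had not received a drug and antibody combination. The genes were taken by symbol from a table of 24493 genes and are Ccl2, Ccl3, Ccl4, Ccl6, Ccl7, Ccl8, Ccl9, Ccl20 and Cxcl12, and all 9 were present. The 2 GAFCP libraries came from tumors treated with gemcitabine, abraxane, a CD40 agonist and blockade of CTLA-4 and PD-1, and the 4 control libraries came from tumors without it. In both groups the cells were of the line named 6419c5 in the titles and had been grown as subcutaneous tumors in C57BL/6 mice, so the report covers 1 line. The sources used here do not give the age of the mice, the doses, the day of sampling, the gate of the sort or whether each library is 1 animal. P-values therefore set the difference between groups against the spread among these libraries only, and that spread may be technical variation. Levels are TPM (a transcript's length-corrected share of its library), which corrects for transcript length and keeps no depth. The sequencing depth is unknown.

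Chemokines are small secreted proteins that bind G protein-coupled receptors on leukocytes and direct their movement. Ccl2 and Ccl7 draw monocytes out of the bone marrow through the receptor Ccr2. Ccl3 and Ccl4 act on monocytes, macrophages and T cells, Ccl3 in part through Ccr1, and Ccl6 and Ccl9 are rodent chemokines of the Ccr1 type. Cxcl12, made mainly by fibroblasts and other stromal cells, binds Cxcr4 and the scavenging receptor Ackr3. Ccl20 is the ligand of Ccr6, a receptor of dendritic cells, B cells and T cells, and is not chiefly a monocyte chemokine. Macrophages are themselves a common source of several of these transcripts in tumors, so a bulk level can come from more than 1 cell type.

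The genes differ in the DNA just before their start sites, and these stretches are shown as a description. Whether they bear on the changes given below was not tested. RefSeq promoter sequences (GRCm38.p6) were found for 6 of the 9 genes. Each line below gives the 150 bases before the start of transcription, 5′ to 3′, with motif matches in capitals.

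Ccl8 (chr11:82115035-82115184, plus strand): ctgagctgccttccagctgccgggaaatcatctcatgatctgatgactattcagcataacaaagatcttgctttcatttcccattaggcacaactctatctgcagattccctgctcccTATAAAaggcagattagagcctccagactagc

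Ccl3 (chr11:83649379-83649528, minus strand): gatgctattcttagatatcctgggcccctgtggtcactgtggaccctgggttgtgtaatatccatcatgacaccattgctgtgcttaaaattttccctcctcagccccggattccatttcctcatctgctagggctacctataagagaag

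Ccl6 (chr11:83593088-83593237, minus strand): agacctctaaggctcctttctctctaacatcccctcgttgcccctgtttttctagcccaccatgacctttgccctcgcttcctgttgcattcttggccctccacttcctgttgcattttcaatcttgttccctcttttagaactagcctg

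Ccl9 (chr11:83578637-83578786, minus strand): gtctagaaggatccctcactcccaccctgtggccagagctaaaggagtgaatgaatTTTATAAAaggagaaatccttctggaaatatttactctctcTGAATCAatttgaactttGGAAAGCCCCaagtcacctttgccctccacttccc

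Cxcl12 (chr6:117168385-117168534, plus strand): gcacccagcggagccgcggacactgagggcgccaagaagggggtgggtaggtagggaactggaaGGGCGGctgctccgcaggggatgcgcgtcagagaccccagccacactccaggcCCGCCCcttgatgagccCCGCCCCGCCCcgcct

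Ccl20 (chr1:83116616-83116765, plus strand): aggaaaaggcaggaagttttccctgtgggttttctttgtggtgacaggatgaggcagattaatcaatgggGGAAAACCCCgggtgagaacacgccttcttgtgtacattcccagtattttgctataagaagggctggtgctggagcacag

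Both strands were searched for the TATA box TATAAA, the GC box GGGCGG and the AP-1 site TGANTCA. The gamma-activated site TTCNNNGAA, the interferon-stimulated element and the NF-kappaB consensus were searched as well. Ccl8 held TATAAA from 32 to 27 bases before its start, and Ccl9 held it from 92 to 87 bases before its start, where the same letters also match on the other strand 2 bases away. TATAAA was present in 7.57% of 32851 promoter windows of this length. The NF-kappaB consensus, present in 2.38% of windows, was found on the opposite strand in Ccl9 and in Ccl20, and TGANTCA, present in 4.24%, in Ccl9. Cxcl12 held 4 GC boxes, a motif present in 28.6% of windows, of which the 2 nearest the start share a base. GC content was 72.7% for Cxcl12, against a median of 54% over all windows, and lay between 44% and 49.3% for the other 5 genes. The gamma-activated site, present in 4.09% of windows, and the interferon-stimulated element, present in 1.59%, matched none of the 6. The windows of Ccl3 and Ccl6 held no match of any kind, and a match or its absence describes the letters only. The Ccl3 window stops at base 83649379, short of the edge of the gene at 83649355 in GENCODE M21. The bases between were not searched.

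Epithelial keratins were abundant in all libraries, and transcripts of leukocytes and stromal cells were present as well. Krt8, an epithelial keratin, stood at 1548 and 1541 TPM in the GAFCP libraries and between 2265 and 2401 TPM in the controls, while the adhesion gene Epcam stood at 1.68 and 1.39 TPM, against 12.5 to 13.1 TPM. The summed TPM of 15 macrophage markers was 5919.9 and 5846 in the GAFCP libraries and 1475 to 1579.5 in the controls. Of these 15 markers 14 were called higher and Cx3cr1 was not called. The counts of called markers given here compare with 19.0% of all genes tested called higher and 28.5% called lower. Sums of 8 pan-leukocyte markers (526.6 and 544.5 TPM, against 191.3 to 201.9 TPM), 8 T and NK cell markers (29.2 and 27.2, against 4.76 to 7.04 TPM), 9 neutrophil markers (95.4 and 106.5, against 25.7 to 29.9 TPM) and 14 fibroblast and pericyte markers (379.4 and 380.7, against 231.2 to 254.4 TPM) were also higher. Sums of 6 dendritic cell markers (7.46 and 5.94 TPM, against 6.03 to 6.89 TPM) and 9 endothelial markers (19.7 and 19.6, against 17.6 to 20.4 TPM) overlapped between the groups. Egfl7, which was called lower (log2 change -0.57), made up 48.5% of the endothelial sum, while 2 of the 4 endothelial markers tested were called higher. The mean of log2(TPM + 1) over the endothelial list was higher by 0.11 with GAFCP (exact permutation p = 0.0667). The sum of 5 monocyte markers was 2418 and 2446 TPM, against 1759 to 1876 TPM in controls, with 4 of 5 called higher, but 95.5% of it was Plac8, and the monocyte gene Chil3 was lower with GAFCP (28.9 and 28.5 TPM, against 47.8 to 55.6 TPM). The sum of 6 mast cell markers was lower (11.7 and 9.63 TPM, against 45.3 to 51.8 TPM), with 91.6% of it from Mcpt4, while Tpsb2 was higher (4.02 and 2.32 TPM, against 0.268 to 0.660 TPM) and passed the filter only through the GAFCP libraries. Cma1 was called higher too (log2 change 0.81, limma adjusted p = 0.0301) and passed the filter through these libraries and 1 control. The mean of log2(TPM + 1) over the mast cell list differed by -0.03 (exact permutation p = 0.733). Of 7 epithelial markers 4 were called lower, Cldn4 was called higher (log2 change 0.57), and Krt18 and Cdh1 were not called. Their sum was 5080.1 and 5112 TPM in the GAFCP libraries, against 6667 to 7040.3 TPM in the controls. Each of these sums that did not overlap had a two-sided exact permutation p of 0.0667, the smallest that 15 arrangements allow, and an adjusted p of 0.0833 over 10 lists. No marker in the 10 lists was at 0 in all libraries, but in 6 lists some stayed under 1 TPM throughout, namely 4 neutrophil, 4 endothelial, 3 dendritic cell, 3 mast cell, 2 T and NK cell and 1 fibroblast and pericyte marker. In bulk RNA, more cells of a type and more RNA per cell cannot be told apart, and the part of these markers in the chemokine results was not tested.

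With GAFCP 8 of the 9 chemokine transcripts rose, and Ccl20 was not called. Genes were called at a limma adjusted p under 0.05 over 13720 genes tested on log2(TPM + 1), of which 47.5% were called in either direction, 19.0% higher and 28.5% lower. Both GAFCP libraries lay above all controls for the same 8 genes, as they did for 24.7% of all genes tested. The median log2 change was 1.87 over the 9 genes and -0.07 over all genes tested. With median-of-ratios scaling between libraries the genes called over the whole table were 3460 higher and 3424 lower, against 2606 higher and 3909 lower, and the calls of the 9 chemokines were as before. The 9 genes all passed the filter of at least 1 TPM in at least 2 libraries, Cxcl12 only through the GAFCP libraries and 1 control.

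**Figure D1:**
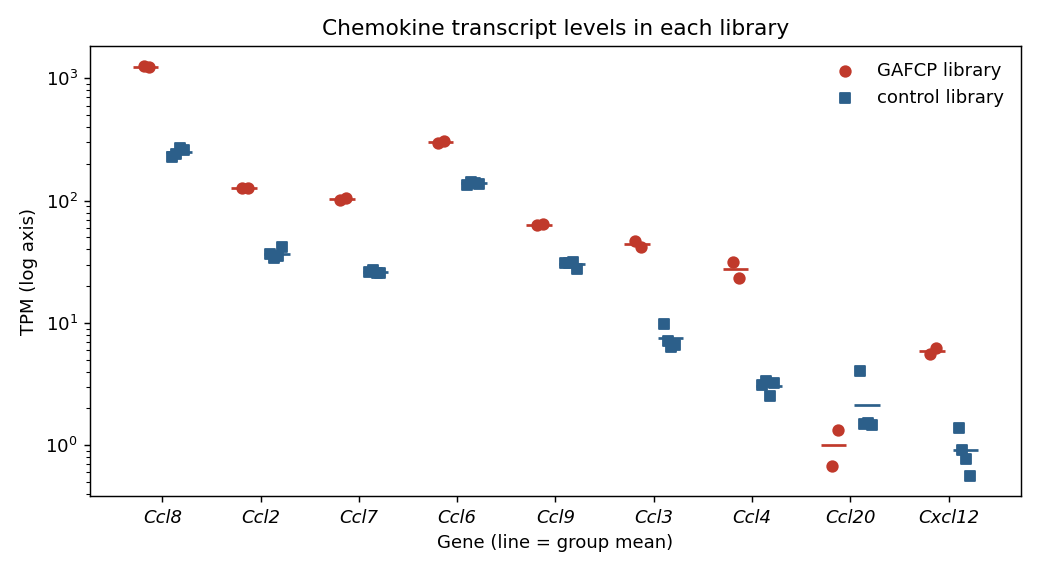
TPM of each chemokine gene in every library on a log axis, with GAFCP libraries as red circles, control libraries as blue squares and group means as lines. Both GAFCP libraries sit above all 4 controls for 8 genes and below them for Ccl20.

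Ccl8, a monocyte chemoattractant that in mice also acts on the receptor Ccr8, was the most abundant of the 9 and rose. Ccl8 was 1253 TPM in GAFCP library 1 and 1244 TPM in GAFCP library 2, and 225.6, 240.3, 272.2 and 259.6 TPM in control libraries 1 to 4. The GAFCP libraries were nearly equal and lay far above the controls, with no overlap. The mean was 1248 ± 6.69 TPM with GAFCP (SD, n = 2) and 249.4 ± 20.6 TPM in controls (SD, n = 4), a ratio of 5.005. On the log2 scale Ccl8 changed by 2.32 ± 0.07 (SE; limma adjusted p = 1.6e-07). Ccl8 made up 65.1% and 64.8% of the summed TPM of the 9 genes in the GAFCP libraries, against 47.7% to 52.7% in the controls. That sum was 1926 and 1919.9 TPM with GAFCP, against 473.3 to 516.2 TPM in controls. Of all genes tested, 0.736% had a larger log2 change than Ccl8.

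Ccl2, the main attractant of Ccr2-bearing monocytes, and its neighbor Ccl7 rose by similar amounts. Ccl2 stood at 127.3 and 128.1 TPM in the GAFCP libraries, against 36.9, 33.99, 35.6 and 41.4 TPM in the controls. Ccl7 stood at 101.6 and 105.7 TPM in the GAFCP libraries, against 26.2, 27.0, 25.9 and 25.8 TPM in the controls. For both genes the groups lay far apart, and the Ccl7 controls were the tighter. The log2 change was 1.76 ± 0.07 for Ccl2 (SE; limma adjusted p = 1.1e-06) and 1.94 ± 0.04 for Ccl7 (SE; limma adjusted p = 4.7e-08). In TPM the means differed by a ratio of 3.45 for Ccl2 and 3.95 for Ccl7. Within a library Ccl2 was 1.25 and 1.21 times Ccl7 with GAFCP, against 1.26 to 1.61 times in controls (two-sided exact permutation p = 0.2, adjusted p = 0.267 over 4 such ratios chosen after the values were seen).

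Ccl6 and Ccl9, the rodent chemokines of the Ccr1 type, had the smallest log2 changes among the 8 that rose when 1 TPM was added. With 5 added Cxcl12 (0.89) was below Ccl9 (0.97) and Ccl6 (1.09). Ccl6 was 295.9 and 305.6 TPM in the GAFCP libraries, against 135.3, 142.0, 140.0 and 137.6 TPM in the controls. Ccl9 was 63.1 and 64.4 TPM in the GAFCP libraries, against 30.8, 30.96, 31.4 and 27.7 TPM in the controls. The mean TPM differed by a ratio of 2.17 for Ccl6 and 2.11 for Ccl9, with the groups well separated and control library 4 the lowest for Ccl9. The log2 change was 1.11 ± 0.04 for Ccl6 (SE; limma adjusted p = 2.2e-07) and 1.06 ± 0.06 for Ccl9 (SE; limma adjusted p = 5.7e-06). Ccl6 was 4.69 and 4.74 times Ccl9 with GAFCP, against 4.39 to 4.98 times in controls, so this ratio overlapped between the groups (exact permutation p = 0.533). The ratio of Ccl8 to Ccl6 was 4.23 and 4.07 with GAFCP, against 1.67 to 1.94 in controls (exact permutation p = 0.0667, adjusted p = 0.267). An antisense gene overlaps Ccl2 and another overlaps Ccl6 in the annotation, and the sources used here do not say whether strand was used in quantification.

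Ccl3 and Ccl4, inflammatory chemokines of activated macrophages and lymphocytes, both rose, with the largest log2 changes among the 9 when 1 TPM was added. This order depended on the added value, since with 0.1 added Cxcl12 (2.63) passed Ccl3 (2.57) and with 5 added Ccl8 (2.30) passed Ccl3 (1.99) and Ccl4 (2.0003). Ccl3 was 47.1 and 41.7 TPM in the GAFCP libraries, against 9.89, 7.12, 6.35 and 6.56 TPM in the controls, where library 1 was the highest. Ccl4 was 31.7 and 23.1 TPM in the GAFCP libraries, against 3.10, 3.33, 2.52 and 3.22 TPM in the controls. The GAFCP libraries stood apart from each other for Ccl4, yet the lower of them was well above each control. The log2 change was 2.44 ± 0.16 for Ccl3 (SE; limma adjusted p = 1.0e-05) and 2.80 ± 0.14 for Ccl4 (SE; limma adjusted p = 2.6e-06). The ratio of mean TPM was 5.94 for Ccl3 and 9.02 for Ccl4. Ccl3 was 1.48 and 1.80 times Ccl4 with GAFCP, against 2.04 to 3.19 times in controls (exact permutation p = 0.133, adjusted p = 0.267).

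Cxcl12, the stromal chemokine, was scarce in controls and rose. It was listed at 5.58 and 6.27 TPM in the GAFCP libraries, against 1.39, 0.915, 0.778 and 0.563 TPM in the controls. The groups did not overlap, and control library 1 was the highest control. The mean TPM differed by a ratio of 6.50, and the log2 change of 1.87 ± 0.18 (SE; limma adjusted p = 8.8e-05) understates this because 1 was added to each value. With 0.1 added the log2 change was 2.63 (limma adjusted p = 2.8e-04) and with 5 added it was 0.89 (limma adjusted p = 2.3e-05). Summed fibroblast and pericyte markers were 1.54 times higher in the same libraries, with 32.3% of the sum from Col1a1. The list was mixed, with log2 changes from -0.82 to 1.77. Of 13 markers tested 9 were called higher and 2 lower, where 19.0% of all genes tested were called higher and 28.5% lower.

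Ccl20 was the only 1 of the 9 that was lower in value, and the difference was not called. It was listed at 0.674 and 1.34 TPM in the GAFCP libraries, against 4.03, 1.501, 1.53 and 1.47 TPM in the controls. Control library 1 stood apart from the other controls, and GAFCP library 2 lay just under them. The log2 change was -0.59, with a 95% interval from -1.32 to 0.14 (limma adjusted p = 0.161). Without control library 1 it was -0.34 (limma adjusted p = 0.155), and without GAFCP library 1 it was -0.35 (limma adjusted p = 0.553).

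In the GAFCP libraries the levels ran from Ccl8 through Ccl6, Ccl2, Ccl7, Ccl9, Ccl3, Ccl4 and Cxcl12 to Ccl20, and no neighbors in this order overlapped. In the controls the order was Ccl8, Ccl6, Ccl2, Ccl9, Ccl7, Ccl3, Ccl4, Ccl20 and Cxcl12. There Ccl4 and Ccl20 overlapped in their library values, and Ccl9 and Ccl7 were separated by less than 1 TPM (27.7 TPM for the lowest Ccl9 and 27.0 TPM for the highest Ccl7).

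Set against the macrophage markers of the same library, the chemokines fell into 3 kinds, with ratios that overlapped between the groups, were higher with GAFCP or were lower. Ccl7 per 1000 TPM of summed macrophage markers was 17.2 and 18.1 TPM with GAFCP, against 17.1 to 17.8 TPM in controls, and Ccl2 was 21.5 and 21.9 TPM, against 21.5 to 27.9 TPM. These 2 ratios overlapped between the groups. Ccl8 was 211.7 and 212.7 TPM per 1000, against 152.1 to 182.4 TPM, and Ccl4 was 5.36 and 3.96 TPM, against 1.69 to 2.17 TPM. Ccl3 was 7.95 and 7.14 TPM per 1000 with GAFCP, against 4.26 to 6.70 TPM in controls, a narrow gap. For these 3 genes both GAFCP libraries were the higher. Ccl6 was 49.99 and 52.3 TPM per 1000 with GAFCP, against 89.9 to 93.8 TPM in controls, and Ccl9 was 10.7 and 11.02 TPM, against 18.6 to 21.0 TPM. Relative to these markers Ccl6 and Ccl9 were therefore lower in the GAFCP libraries, while their TPM was higher. Cxcl12 was 0.943 and 1.07 TPM per 1000 with GAFCP and 0.380 to 0.943 TPM in controls, so that GAFCP library 1 and control library 1 were level to the digits given. Ccl20 was 0.114 and 0.229 TPM per 1000, against 0.950 to 2.73 TPM. These ratios are descriptions without a test, and 43.8% of the macrophage sum was Apoe.

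**Figure D2:**
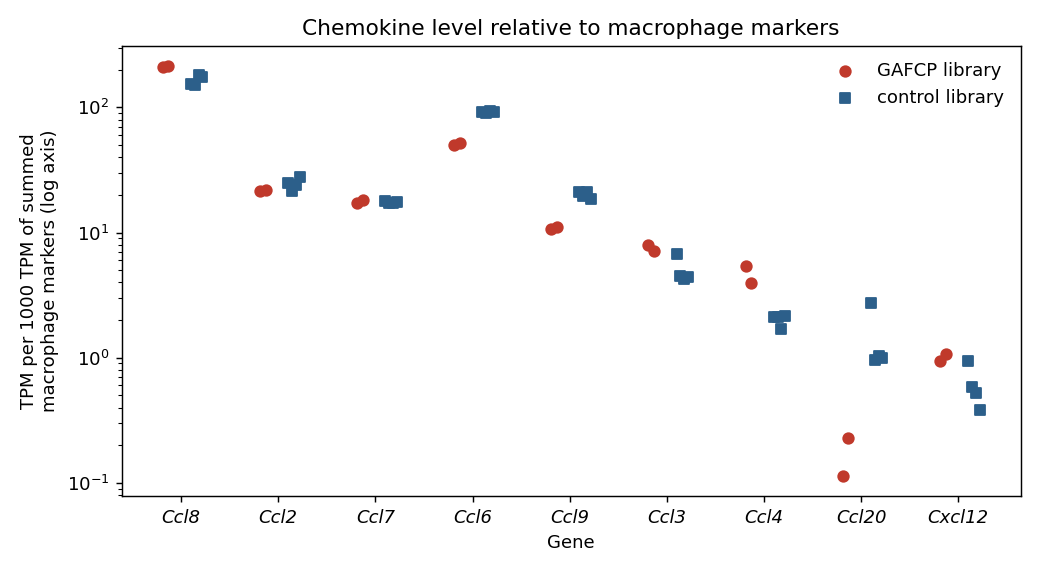
Level of each chemokine per 1000 TPM of the 15 summed macrophage markers in the same library, on a log axis, with GAFCP libraries as red circles and control libraries as blue squares. Ccl7 overlaps between groups at 17.1 to 18.1, Ccl8, Ccl3 and Ccl4 are higher with GAFCP, and Ccl6 and Ccl9 are lower.

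The choice of marker list changed some of these positions. Per summed pan-leukocyte markers, the GAFCP libraries were above all controls for Ccl2 (241.7 and 235.3 TPM per 1000, against 168.4 to 206.0) and Ccl7 (192.9 and 194.2, against 128.3 to 135.2). Ccl6 was below the controls on this scale too (561.9 and 561.2 TPM per 1000, against 684.1 to 731.9), as was Ccl9 (119.8 and 118.3, against 137.5 to 163.9). Against the fibroblast and pericyte markers, a comparison added after the values were seen, Cxcl12 was 14.7 and 16.5 TPM per 1000 with GAFCP and 2.27 to 5.54 TPM in controls. Cxcl12 was thus higher relative to those markers as well, and so were Ccl2, Ccl3, Ccl4, Ccl7 and Ccl8, while Ccl20 was lower. Ccl6 was above all controls on this scale (780.0 and 802.7 TPM per 1000, against 538.7 to 605.7). Ccl9 was above them too (166.3 and 169.3, against 111.6 to 135.7), so both genes changed sides with the marker list.

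Receptors of these chemokines rose where they were detected. Of 8 receptors listed, 4 passed the filter and all 4 were called higher, where 19.0% of all genes tested were. Ccr2, the monocyte receptor of Ccl2 and Ccl7, averaged 3.32 ± 0.223 TPM with GAFCP (SD, n = 2) and 1.12 ± 0.214 TPM in controls (SD, n = 4). Its log2 difference was 1.03 ± 0.13 (SE; limma adjusted p = 5.3e-04). Cxcr4, the signaling receptor of Cxcl12, averaged 6.81 TPM with GAFCP and 3.12 TPM in controls (log2 change 0.93; limma adjusted p = 5.4e-04). Ccr1, bound by Ccl3, Ccl6 and Ccl9, averaged 5.93 TPM with GAFCP and 4.04 TPM in controls (log2 change 0.46, limma adjusted p = 0.0062), and was not called without GAFCP library 2 (limma adjusted p = 0.0644). Ackr3, which removes Cxcl12 from the surroundings, was the most abundant of the receptors at 57.3 ± 1.98 TPM with GAFCP and 39.1 ± 0.983 TPM in controls (SD), a log2 change of 0.54. Ccr3, Ccr6 and the scavenging receptors Ackr1 and Ackr2 stayed under the filter, Ccr6 at 0.112 TPM with GAFCP and 0.0718 TPM in controls on average. Ccr8, looked up after the values were seen, averaged 0.0808 TPM with GAFCP and 0.134 TPM in controls. Ccr2 is also on the monocyte marker list, and the macrophage and pan-leukocyte sums were higher in the same libraries.

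The other CC chemokines moved in both directions. Of the 15 that were present, 9 were tested, and 3 were called higher and 4 lower, where 19.0% of all genes tested were called higher and 28.5% lower. Ccl5, which draws T cells and monocytes, was 37.1 TPM with GAFCP and 3.89 TPM in controls on average (log2 change 2.98), and the eotaxin Ccl24 was 16.7 TPM with GAFCP and 5.32 TPM in controls (log2 change 1.49; limma adjusted p = 6.4e-06 for Ccl5 and 5.0e-06 for Ccl24). Ccl12, a mouse relative of Ccl2, was 10.9 and 17.4 TPM in the GAFCP libraries, against 7.96 to 8.85 TPM in controls (log2 change 0.64, limma adjusted p = 0.0112). With control libraries 1 and 2 alone Ccl12 was not called (limma adjusted p = 0.0741). Ccl17, a ligand of Ccr4, was 4.92 and 7.54 TPM with GAFCP, against 8.89 to 14.6 TPM in controls (log2 change -0.74, limma adjusted p = 0.0196), and was not called without GAFCP library 1 (limma adjusted p = 0.164). Ccl25 had a log2 change of -0.32 (limma adjusted p = 0.0091) and was not called without GAFCP library 1 (limma adjusted p = 0.0604) or library 2 (limma adjusted p = 0.0635). Ccl27a changed by -0.48 and Ccl21a was listed at 0 in both GAFCP libraries, against 6.46 to 6.58 TPM in controls. These last 2 are uncertain, because 57.0% of the 31-base words of Ccl27a and 80.6% of those of Ccl21a occur in transcripts of other genes, and Il11ra1 overlaps Ccl27a on the other strand. For the 9 chemokines described above this share was between 0 and 3.98%.

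**Figure D3:**
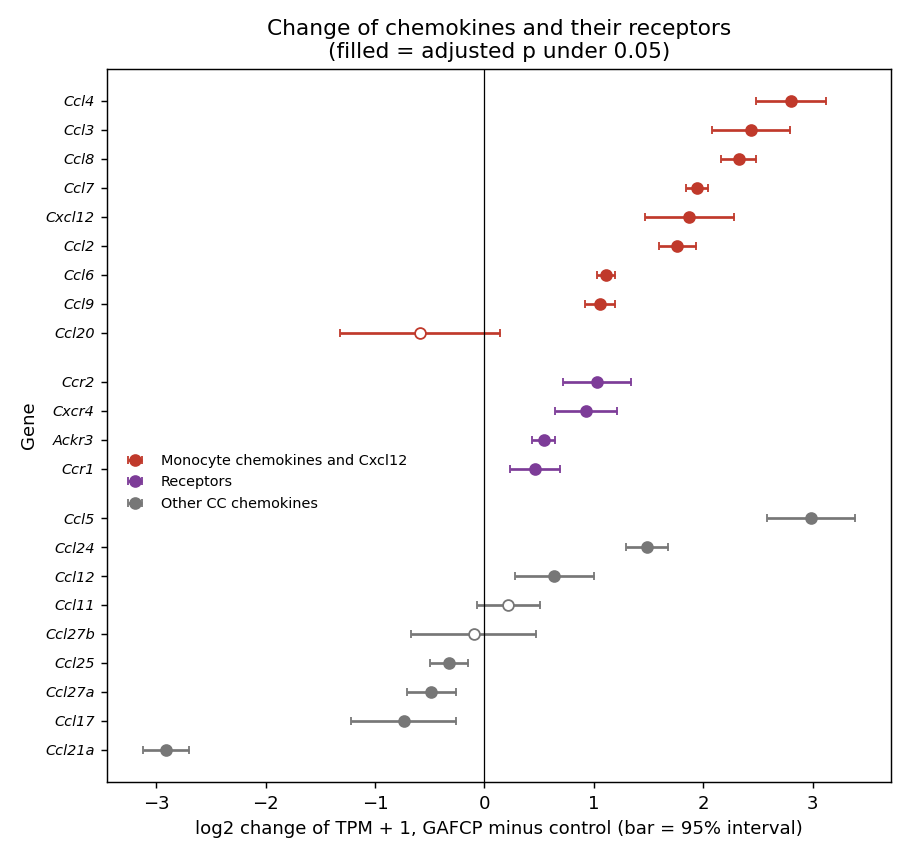
Log2 change of TPM + 1, GAFCP minus control, for the 9 chemokines (red), the 4 tested receptors (purple) and the 9 other tested CC chemokines (gray), with 95% intervals and filled points for an adjusted p under 0.05. Among the 9 chemokines the interval of Ccl20 spans 0, and Ccl4 has the highest value at 2.80.

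The genes lie in groups along chromosome 11, and neighbors there changed by unequal amounts. In GENCODE M21 on GRCm38 the order from Ccl2 (82035571 to 82037453) runs through Ccl7 (82045712 to 82047525), Ccl11, Ccl12 and Ccl8 (82115185 to 82116799) to Ccl1. Ccl2, Ccl7 and Ccl8 rose by 1.76, 1.94 and 2.32 on the log2 scale, while Ccl11, an eosinophil chemokine between Ccl7 and Ccl12, averaged 1.75 TPM with GAFCP and 1.36 TPM in controls and was not called (log2 change 0.22, limma adjusted p = 0.188). Ccl12 changed by 0.64, and Ccl1 stayed under the filter. Ccl5, Ccl9 (83572919 to 83578636), Ccl6 (83587882 to 83593087), Ccl3 (83647844 to 83649355) and Ccl4 (83662584 to 83664683) form the second group. All 5 were called higher, where 19.0% of all genes tested were. Apart from Ccl5 they belong to the 9 chemokines described above, so this count largely repeats that result. The log2 changes there were 2.98 for Ccl5, 1.06 for Ccl9, 1.11 for Ccl6, 2.44 for Ccl3 and 2.80 for Ccl4, so that Ccl9 and Ccl6, which lie side by side, also had the smallest changes. Cxcl12 lies on chromosome 6 (117168535 to 117181367) and Ccl20 on chromosome 1 (83116766 to 83119167).

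**Figure D4:**
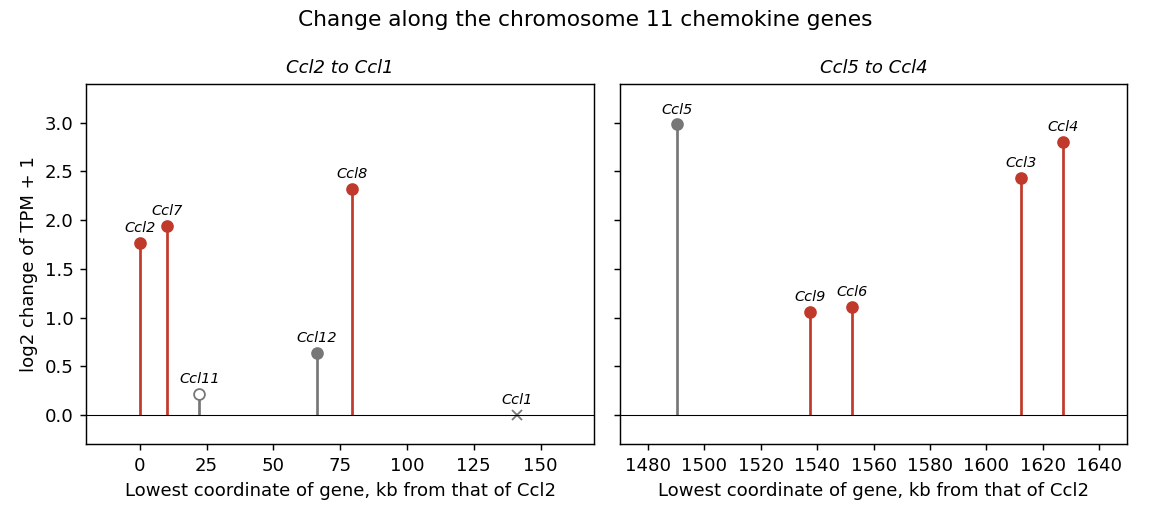
Log2 change of TPM + 1, GAFCP minus control, of CC chemokine genes by their distance along chromosome 11 from Ccl2 in kilobases, in 2 panels. The described chemokines are red and other CC chemokines gray, filled points are called, and the cross marks Ccl1, which was not tested. Ccl11 at 0.22 lies between Ccl7 at 1.94 and Ccl8 at 2.32.

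Cytokines known to induce these chemokines, and regulators of the NF-kappaB and interferon pathways, were examined next. Of 11 such genes 8 were called higher, where 19.0% of all genes tested were. Il1b, an inflammasome-processed cytokine, averaged 37.9 ± 0.0618 TPM with GAFCP and 6.07 ± 0.452 TPM in controls (SD), a log2 change of 2.46 (limma adjusted p = 1.8e-07). Il1a, a related cytokine, was 32.2 and 29.98 TPM in the GAFCP libraries, against 4.23 to 5.69 TPM in controls, a log2 difference of 2.41 (limma adjusted p = 1.9e-06). Tnf, an inflammatory cytokine, was 11.8 and 14.3 TPM in the GAFCP libraries, against 0.564 to 1.64 TPM in controls, and Ifng, the cytokine of T and NK cells, was 1.75 and 1.32 TPM, against 0.0638 to 0.156 TPM. Ifng passed the filter only through the GAFCP libraries, and Tnf through these and 1 control. Nfkbia, which encodes an inhibitor of NF-kappaB and is its target, rose by 1.45, and Irf1, an interferon-induced transcription factor, by 1.94 on the log2 scale (limma adjusted p = 6.8e-08 for Nfkbia and 7.7e-08 for Irf1). The NF-kappaB subunit genes changed less. Nfkb2 rose by 0.25 (limma adjusted p = 0.0012), and Relb rose by 0.29 (limma adjusted p = 0.0186) but was not called without GAFCP library 1 (limma adjusted p = 0.101) or library 2 (limma adjusted p = 0.0815). Nfkb1 had a log2 change of 0.03, Rela of -0.06 and Rel of -0.07, and none of these 3 was called (limma adjusted p = 0.604, 0.317 and 0.668). With median-of-ratios scaling Nfkb1 was called at 0.10 (limma adjusted p = 0.0372).

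Genes whose products cleave or hold chemokines were examined as well. Of 9 listed, 8 were tested and 3 were called, all higher, where 47.5% of all genes tested were called in either direction. Sdc4, a heparan sulfate proteoglycan, averaged 407.9 ± 4.50 TPM with GAFCP and 183.1 ± 7.38 TPM in controls (SD), a log2 change of 1.15 (limma adjusted p = 5.8e-07). Mmp2, a protease that cleaves Ccl7 and Cxcl12, rose by 1.499 (limma adjusted p = 1.5e-05) and Ext1, a heparan sulfate polymerase, by 0.50 (limma adjusted p = 8.8e-05). Mmp14, another protease that can cleave Cxcl12, averaged 230.9 TPM with GAFCP and 232.9 TPM in controls and was not called, though with quantile normalization it was called lower (log2 change -0.11, limma adjusted p = 0.0106). Sdc1 had a log2 change of -0.10 (limma adjusted p = 0.0543), and was called lower without control library 3 (limma adjusted p = 0.0185). It was also called lower with quantile normalization (0.0025), with array weights (0.0117) and with rescaling without the 50 most abundant genes (0.0036) or without microRNA and small nucleolar RNA genes (0.0131). Ext2 was not called (log2 change -0.10, limma adjusted p = 0.125), but was called lower without control library 3 (0.0428), with array weights (0.0339) and without the 50 most abundant genes (0.0254). Dpp4, which trims Cxcl12, stayed under the filter.

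Of the macrophage growth factor genes the receptor rose, and neither ligand was called. Csf1r, their receptor and itself a macrophage marker, averaged 94.7 ± 0.285 TPM with GAFCP and 18.1 ± 0.728 TPM in controls (SD), a log2 change of 2.33 (limma adjusted p = 4.3e-08). Its ligand Csf1 was 13.9 and 15.03 TPM in the GAFCP libraries, against 15.7 to 18.4 TPM in controls, and was not called (log2 change -0.19, limma adjusted p = 0.0646), though it was without control library 3 (limma adjusted p = 0.0379), with array weights (0.0281), after the 50 most abundant genes were taken out of the scaling (0.0395) and with control libraries 1 and 2 alone (0.0468). Il34, the other ligand, averaged 37.4 TPM with GAFCP and 35.6 TPM in controls (log2 change 0.07, limma adjusted p = 0.336), and was called higher with median-of-ratios scaling (0.13, limma adjusted p = 0.0344).

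For each chemokine with a mean of at least 5 TPM, the 2 genes with the most similar profile over the 6 libraries were found by Euclidean distance between centered log2(TPM + 1) values, among 10063 other genes of at least 5 TPM. The profile of Ccl8 was closest to Isg15, a ubiquitin-like interferon-induced protein (distance 0.107), and the complement gene C6 (0.135). Ccl2 was closest to Dhx58, a cytosolic RNA sensor (0.124), and Fst, an activin antagonist (0.165). The profile of Ccl7 was closest to Csf2, a myeloid growth factor (0.0578), and the collagenase Mmp13 (0.0581). Ccl3 was closest to the C-type lectin genes Clec4a1 (0.231) and Clec10a (0.351), and Ccl4 to Ifi44 (0.298) and the neutrophil chemokine Cxcl2 (0.377). Ccl6 was closest to Pla2g16 (0.0497) and Sdc3 (0.0641), and Ccl9 to Timp1 (0.0955) and Wdr92 (0.101). The values were centered but not scaled, so the distance rests largely on the size of the change between the groups. The log2 change was 1.94 for Ccl7, Csf2 and Mmp13 alike. For Ccl8 it was 2.32, against 2.38 for Isg15 and 2.34 for C6. No test was made on these distances, and shared regulation was not tested.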

How the data were processed

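RNA from sorted tumor cells was sequenced in 6 libraries, per the labels' protocols. The deposited TPM values were made by the authors with Salmon and mm10, per the submitters' processing notes. The sources used here do not give the Salmon version, the transcript annotation or the depth, so precision rests on the spread between libraries. Because TPM adds to a fixed total in each library, a change in a few abundant genes moves all others. Groups and replicate numbers came from the titles.

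A gene was tested if 2 or more libraries reached 1 TPM, which left 13720 of 24493. The model, on log2(TPM + 1), was limma (version 3.58.1, R 4.3.3) with the variance trended on the mean, and 4 residual degrees of freedom remained. Benjamini-Hochberg adjustment covered every gene in the model. The added 1 TPM shrinks the changes of scarce transcripts. The test was tried on simulated data. Marker sums and ratios were computed in Python 3.11.15 with exact permutation tests over 15 arrangements. Positions came from GENCODE M21, for 32 of 33 symbols looked up, and promoters from RefSeq.

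The 9 genes, the 5 related gene lists, the 10 marker lists and the rule for named genes were chosen with earlier results of these data known. Named were the 9 genes, each receptor, up to 4 called genes of each list by p, the most abundant markers and the 2 most similar genes. Genes of the lists beyond this rule (Nfkb1, Nfkb2, Rela, Rel, Relb, Tnf, Ifng, Mmp14, Sdc1, Ext2, Dpp4, Csf1, Il34, Ccl11, Ccl12, Ccl17, Ccl25, Ccl27b, Ccl1, Chil3, Cx3cr1, Epcam, Cldn4, Cdh1, Tpsb2, Cma1), as well as Ccr8 and Il11ra1, were named after their values were seen. Some genes of the related lists are not reported here. In all, 21 alternatives were tried for the fit.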

Additional observations from a re-analysis of the deposited data

Results flagged for a closer look

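Among 19 sets of control values examined (9 chemokines and 10 marker sums), 3 held a library far from the other controls by Dixon's test. Chance alone gives about 1 in 20. Ccl20 was 4.03 TPM in control library 1, against 1.47 to 1.53 TPM in the other controls. Ccl9 was 27.7 TPM in control library 4, the lowest of the controls. The summed macrophage markers were 1579.5 TPM in control library 2, the highest of the controls.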

How the results depend on the processing

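All 9 chemokine calls and directions were the same under each alternative that could be run, 21 for each of 7 genes and 20 for Ccl20 and Cxcl12, which are absent at a mean of at least 5 TPM. Ccl8 ranged from 2.23 to 2.42, Cxcl12 from 0.89 to 2.63 and Ccl20 from -0.94 to -0.23 on the log2 scale. Genes called over the whole table ranged from 4258 to 7226 when 1 library was left out, being 4258 without GAFCP library 1 and 4313 without GAFCP library 2, where the remaining GAFCP library is assumed to vary as the controls do. At a mean of at least 5 TPM 1 receptor was called, with fewer tested. The cleavage and heparan sulfate list had 5 genes called with quantile normalization, with rescaling without the 50 most abundant genes and with array weights, and 3 to 5 with 1 library left out. In those 3 settings the added calls were all lower. The macrophage growth factor list had 2 called with median-of-ratios scaling, with that rescaling, with array weights and with control libraries 1 and 2 alone, and 1 to 2 with 1 library left out. The cause was not tested. Leaving out 1 library, the log2 ratio of the dendritic cell sum ran from -0.11 to 0.21 and that of the endothelial sum from -0.0086 to 0.062. Genes that were not called changed sign as follows. Ccl27b was 0.18 with the replicate block and with control libraries 1 and 2 alone, and ran from -0.39 to 0.19 with 1 library left out. Rela was 0.0055 and Mmp14 0.051 with median-of-ratios scaling. Rel ran from -0.17 to 0.022 with 1 library left out and was 0.0077 with control libraries 3 and 4 alone.

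With the replicate number as a block 5894 genes were called, with 1 residual degree of freedom. Under this block the log2 change was 2.42 for Ccl8, 1.82 for Ccl2, 1.92 for Ccl7, 1.11 for Ccl6, 1.02 for Ccl9, 2.27 for Ccl3, 2.74 for Ccl4, 1.69 for Cxcl12 and -0.84 for Ccl20. Among the lists, 4 receptors, 5 other CC chemokines, 7 inducers and regulators, 3 cleavage and heparan sulfate genes and 1 macrophage growth factor gene were called under the block. The listed genes not called there, though called without it, were Ccl12 (0.59, limma adjusted p = 0.0664), Ccl25 (-0.29, limma adjusted p = 0.0559) and Relb (0.23, limma adjusted p = 0.0505). Deviations of same-numbered libraries from their group means correlated across genes at -0.0073 (number 1) and -0.020 (number 2), so the numbers were not taken to pair the libraries. Without counts, what depth limits could not be assessed, and Cxcl12 and Ccl20 are the 2 genes near the filter.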
